A study of Homo sapiens with 12 samples.

Results

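The BAG cochaperones and the small heat shock proteins were examined across all conditions of an RNA-seq experiment on compounds that may act on mutant p53. The members were chosen by name: BAG1, BAG2, BAG3, BAG4, BAG5, HSPB1, HSPB8, HSPB11 and CRYAB, 9 of the 40295 gene identifiers in the deposited count table. Each of the 9 symbols stood for 1 identifier. The table was summed by symbol to 36486 features.

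The 12 libraries fell into 5 groups. TOV-112D, an ovarian cancer line labelled with the p53 genotype R175H, had been treated for 3 h with DMSO (the vehicle), UCI-1001 or UCI-1014, with 2 libraries in each group. Saos-2, an osteosarcoma line, was labelled p53-null or p53-WT with 16 h of induction in both groups, and 3 libraries were made of each. The p53-WT cells carried wild-type p53 under doxycycline control in a background without functional p53. UCI-1001 is a pyrimidine trione, and its analog UCI-1014 has a methoxy group where UCI-1001 has a nitro group. The paper states the dose of UCI-1001 for this experiment. The dose of the UCI-1014 libraries is not given in the sources used here, so it is not known whether the doses of both compounds matched. No source says that replicates were separate cultures, so the p-values measure only the spread between these libraries, which may be technical.

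BAG proteins share a domain that binds HSP70 and promotes the release of its nucleotide, and with it the release of the bound client protein. Their other domains direct the HSP70 client to different fates: BAG1 carries a ubiquitin-like domain and links HSP70 to the proteasome, BAG2 inhibits the ubiquitin ligase CHIP, and BAG3 links HSP70 to small heat shock proteins and to selective autophagy. Small heat shock proteins such as HSPB1 (HSP27), HSPB8 (HSP22) and CRYAB (αB-crystallin) hold unfolded proteins without using ATP. BAG3, HSPB1 and CRYAB are classical targets of HSF1, the heat shock transcription factor. HSPB11, now named IFT25, is a subunit of the intraflagellar transport machinery of cilia and belongs to the family by name.

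The heat shock element bound by HSF1 is made of inverted copies of the unit GAA. The stretches of 250 bases before the RefSeq start are shown for the 4 members below because these genes were called higher with UCI-1014. They are RefSeq promoters on GRCh38.p14, written 5′ to 3′ on the strand of the gene (plus in each case), and capitals mark the 2-unit element GAANNTTC or TTCNNGAA, each of which reads the same on both strands. The HSPB8 stretch lies inside the gene as GENCODE 44 draws it, from 119171555, because the RefSeq start used there is downstream.
BAG3, chr10:119651130-119651379: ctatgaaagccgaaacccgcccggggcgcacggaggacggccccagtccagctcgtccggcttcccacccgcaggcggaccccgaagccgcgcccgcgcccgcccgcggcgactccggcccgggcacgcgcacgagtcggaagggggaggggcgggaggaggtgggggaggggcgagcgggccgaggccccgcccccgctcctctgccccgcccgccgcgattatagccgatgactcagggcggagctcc
HSPB1, chr7:76302423-76302672: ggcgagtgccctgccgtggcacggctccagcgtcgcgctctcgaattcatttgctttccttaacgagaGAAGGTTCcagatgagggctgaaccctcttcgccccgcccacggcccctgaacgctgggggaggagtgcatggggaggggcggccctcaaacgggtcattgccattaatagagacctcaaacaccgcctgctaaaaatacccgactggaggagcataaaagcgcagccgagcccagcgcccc
BAG2, chr6:57172076-57172325: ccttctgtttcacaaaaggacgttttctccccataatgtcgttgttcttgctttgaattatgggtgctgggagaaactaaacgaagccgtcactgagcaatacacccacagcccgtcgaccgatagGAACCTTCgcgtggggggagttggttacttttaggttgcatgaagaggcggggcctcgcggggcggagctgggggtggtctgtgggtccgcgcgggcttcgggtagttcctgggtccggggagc
HSPB8, chr12:119178681-119178930: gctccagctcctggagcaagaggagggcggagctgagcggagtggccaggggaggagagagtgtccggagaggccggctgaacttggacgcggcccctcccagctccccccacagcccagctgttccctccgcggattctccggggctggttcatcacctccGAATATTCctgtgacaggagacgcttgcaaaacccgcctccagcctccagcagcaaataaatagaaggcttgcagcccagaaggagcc

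Of the 9 members, 7 matched an entry of the promoter table, HSPB11 under its name IFT25, and BAG4 and CRYAB did not. The 2-unit element was found before HSPB1 (beginning 182 bases before the start), BAG2 (124 bases) and HSPB8 (88 bases), 3 of the 7 members. By promoter, the 7 members have 9, and 3 of these hold the element. The element was present in 11.6% of all 35116 promoters, which belong to 27305 genes. The 3-unit element, in which a further inverted unit follows after any 2 bases, was found before none of the 7 and in 0.441% of all promoters. No 2-unit element lay in the 250 bases before BAG3, BAG1, BAG5 or HSPB11. These are matches of letters in a short window and no record of binding.

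Sequencing depth was 17762027 to 20717898 counts per library in TOV-112D and 19593655 to 24629558 in Saos-2. CPM are counts scaled to library size with TMM factors. Replicate 1 of each Saos-2 group lay apart from replicates 2 and 3: chi-square divided by its degrees of freedom was 24.6 to 41.3 for pairs with replicate 1 and 3.19 to 3.95 for the other pairs. Most cell type markers went against the Saos-2 label, but some did not. Only 1 of 6 osteoblast lineage markers reached 1 TPM in all libraries of either group. It was RUNX2, at 2.21 to 3.58 TPM (p53-null) and 1.06 to 1.79 TPM (p53-WT). The summed level of the 6 markers was 3.53 to 5.37 TPM (p53-null) and 2.01 to 2.67 TPM (p53-WT). SP7 was at 0 counts in all 6 libraries. Of 6 epithelial markers, 4 reached 1 TPM. The summed level of the 6 was 701 to 778 TPM (p53-null) and 736 to 805 TPM (p53-WT), most of it from KRT8 and KRT18. The epithelial markers EPCAM and CDH1 were nearly absent, at most 0.258 and 0.102 TPM in any Saos-2 library. In TOV-112D, 3 of 6 osteoblast lineage markers (27.6 to 33.3 TPM summed) and 1 of 6 epithelial markers (2.82 to 5.83 TPM summed) reached 1 TPM, and KRT18 was at 0. The 4 leukocyte markers summed to at most 1.94 TPM in any library. The part of cell identity in the results below was not tested, and the groups are called by their labels. In bulk RNA, fewer cells of a type and less RNA per cell cannot be told apart.

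Levels were compared between genes only per length, as TPM, a length-corrected share of all transcripts, summed over the transcripts of each gene. HSPB1 was the most abundant member in all 5 groups, from 289 ± 14.7 TPM (n = 3) in p53-null cells to 1719 ± 34.6 TPM (n = 2) with UCI-1014. BAG3 ranged from 33.1 ± 0.407 TPM with DMSO to 902 ± 111 TPM with UCI-1014, where it was second to HSPB1. BAG1, BAG2, BAG4, BAG5 and HSPB11 had group means between 4.97 TPM (BAG2 in p53-WT) and 70.7 TPM (BAG1 with DMSO). The TPM of BAG1 and BAG5 are incomplete, because the transcripts found in GENCODE 44 held as little as 67.5% and 93.3% of their counts in a library. HSPB8 and CRYAB were at the low end, at most 1.24 ± 0.0926 TPM and 6.55 ± 0.395 TPM, and both were listed at 0 in all 3 p53-null libraries.

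**Figure D1:**
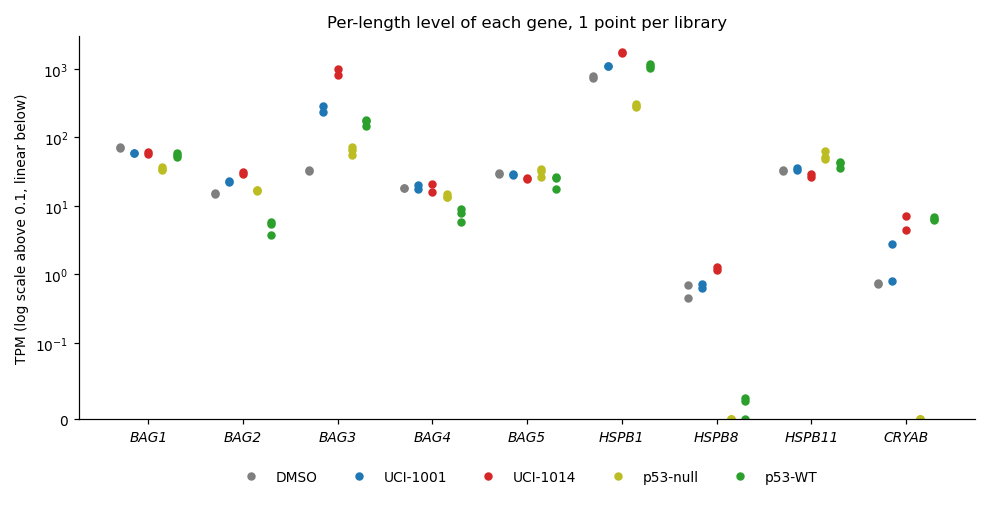
Per-length level of each member (TPM, y axis, logarithmic above 0.1 and linear below) in each of the 12 libraries, with 1 point per library coloured by group. HSPB1 lies highest in every group, BAG3 spans 33.1 to 902 TPM between the DMSO and UCI-1014 means, and HSPB8 and CRYAB lie at 0 in p53-null cells.

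UCI-1001 was compared with DMSO to ask which of these genes responded within 3 h in cells with mutant p53. BAG3 rose 7.9-fold, BAG2 rose 1.47-fold, HSPB1 rose 1.41-fold, and BAG4, BAG5 and HSPB11 stayed within 0.1 of 0 on the log2 scale without passing the test. CRYAB passed the filter on low counts only through the UCI-1014 libraries. It is therefore left out of the counts and medians of members below, except for counts in the closing section on processing. Of the other 8, 3 were higher and 1 was lower, beside 9.39% higher and 6.36% lower (15.7% in either direction) of the 14177 features tested. The median log2 fold change was 0.28 over these 8 and 0.00 over all features.

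BAG3 (ENSG00000151929, chromosome 10, 119651380 to 119677819 on GRCh38, plus strand) measured 46.7 and 48.3 CPM with DMSO, 339 and 412 CPM with UCI-1001, and 1427 and 1226 CPM with UCI-1014. The 3 groups did not overlap, and both UCI-1014 libraries exceeded both UCI-1001 libraries. The log2 fold change with UCI-1001 was 2.98 (SE 0.09, adjusted p = 3.1e-11), which placed BAG3 at 33 when all features were ordered from the highest fold change down. With UCI-1014 it was 4.80 (SE 0.09, adjusted p = 3.8e-14), a 27.9-fold difference with a 95% interval of 24.3 to 32.1, at place 26. One protein-coding transcript, ENST00000369085, held a mean of 89.6%, 90.4% and 90.1% of the BAG3 TPM in the DMSO, UCI-1001 and UCI-1014 groups.

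BAG2 (ENSG00000112208, chromosome 6, 57172326 to 57189833, plus strand) measured 62.9 and 66.5 CPM with DMSO, 92.7 and 97.9 CPM with UCI-1001, and 136 and 129 CPM with UCI-1014. The groups stood in the same order as for BAG3, without overlap. The log2 fold change was 0.56 (SE 0.05, adjusted p = 5.4e-06) with UCI-1001 and 1.03 (SE 0.05, adjusted p = 8.7e-10) with UCI-1014. BAG2 overlaps RAB23 and ZNF451-AS1 on the opposite strand. The strandedness of the libraries is not given in the sources used here, so reads in the overlaps cannot be assigned with certainty. The same limit holds for BAG1 (SPINK4), BAG4 (LSM1 and the pseudogene ENSG00000248585), HSPB8 (ENSG00000256884 and ENSG00000256609), BAG5 and CRYAB. HSPB8 also overlaps the pseudogene ENSG00000213144 on its own strand.

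HSPB1 (ENSG00000106211, chromosome 7, 76302673 to 76304295, plus strand) measured 352 and 332 CPM with DMSO, 489 and 473 CPM with UCI-1001, and 777 and 774 CPM with UCI-1014. The order of the groups was again DMSO, UCI-1001, UCI-1014, and the gaps were far wider than the spread within a pair. Fitted log2 fold changes were 0.49 (SE 0.04, adjusted p = 6.8e-07) with UCI-1001 and 1.18 (SE 0.04, adjusted p = 5.8e-12) with UCI-1014. With all 12 libraries in one fit, the adjusted p of the UCI-1001 difference was 0.117.

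BAG1 (ENSG00000107262, chromosome 9, 33247820 to 33264720, minus strand) measured 53.7 and 51.8 CPM with DMSO, 46.8 and 45.5 CPM with UCI-1001, and 45.6 and 49.5 CPM with UCI-1014. Both UCI-1001 libraries lay below both DMSO libraries. The log2 fold change with UCI-1001 was -0.19 (SE 0.06, adjusted p = 0.0497), a call that ended in 9 of the 12 alternatives, including DESeq2 (adjusted p = 0.271). With UCI-1014 it was -0.15 (SE 0.06, adjusted p = 0.067).

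UCI-1014 was compared with the same DMSO libraries, so both sets of fold changes share their controls. Of the 8 members without CRYAB, 4 were called higher (BAG3, HSPB1, BAG2 and HSPB8, the last not in every alternative) and 1 was lower (BAG5). The background was 23.7% higher and 23.4% lower (47.1% in either direction) of 14177 features, and the median was 0.47 over these members against -0.02 over all features. HSPB11 (-0.23, SE 0.10, adjusted p = 0.0692), BAG1 and BAG4 (-0.10, SE 0.07, adjusted p = 0.261) did not pass the test.

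CRYAB (ENSG00000109846, chromosome 11, 111908564 to 111923722, minus strand) rested on few reads: 4 and 2 counts with DMSO, 17 and 7 with UCI-1001, and 51 and 34 with UCI-1014. Both UCI-1014 libraries lay above all other TOV-112D libraries. The summed counts, scaled by depth, differed 13.5-fold between UCI-1014 and DMSO (exact 95% interval 5.94 to 37.7, counting error only). The ratio was 3.73 (1.48 to 11.2) between UCI-1001 and DMSO, with an adjusted p of 0.0897. No test is given for the differences with UCI-1014, because CRYAB entered the fit only through that group. CRYAB overlaps HSPB2, HSPB2-C11orf52 and C11orf52 on the opposite strand.

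HSPB8 (ENSG00000152137, chromosome 12, 119171555 to 119224855, plus strand) gave 17 and 4 counts with DMSO, 16 and 18 with UCI-1001, and 25 and 33 with UCI-1014. The DMSO libraries lay far apart, and the higher of them was level with the UCI-1001 pair. The log2 fold change with UCI-1014 was 1.52 (SE 0.48, adjusted p = 0.0178), and without DMSO replicate 2 it was 0.86 (adjusted p = 0.174). Leaving out UCI-1014 replicate 1 or 2 gave adjusted p = 0.0506 and 0.0908, and the call also ended with DESeq2 (0.08), with all 12 libraries in one fit (0.0704) and with an offset for transcript length (0.0861). Leaving out DMSO replicate 1 raised the log2 fold change to 2.85.

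BAG5 (ENSG00000166170, chromosome 14, 103556545 to 103562657, minus strand), which inhibits the ubiquitin ligase Parkin, measured 90.1 and 89.0 CPM with DMSO, 86.0 and 87.3 CPM with UCI-1001, and 74.6 and 74.7 CPM with UCI-1014. Only the UCI-1014 pair stood clearly below the rest. BAG5 overlaps ENSG00000258851, a long non-coding RNA gene, over 5333 bases and KLC1 over 762 bases on the opposite strand. The log2 fold change with UCI-1014 was -0.26 (SE 0.05, adjusted p = 3.4e-04), and with UCI-1001 it was -0.05 (SE 0.05, adjusted p = 0.555).

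BAG4 (ENSG00000156735, chromosome 8, 38176533 to 38213301, plus strand), which silences signalling from death receptors, measured 36.5 to 42.5 CPM in all 6 TOV-112D libraries. The groups overlapped or nearly did, and the log2 fold change with UCI-1001 was -0.01 (95% interval -0.16 to 0.14). Within that flat level the transcripts were divided differently. BAG4-203, which has no defined coding sequence, held 0.794% and 2.39% of the BAG4 TPM in the DMSO libraries, 11.5% and 14.6% with UCI-1001, and 15.2% and 17.0% with UCI-1014. It held 0% to 2.76% in p53-null and 4.27% to 19.4% in p53-WT libraries. These shares are estimates at 0.236 to 2.99 TPM (group means), and they were described without a test.

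HSPB11 (ENSG00000081870, chromosome 1, 53916574 to 53945699, minus strand) measured 14.5 and 14.2 CPM with DMSO, 15.5 and 14.5 CPM with UCI-1001, and 12.7 and 11.9 CPM with UCI-1014. The UCI-1014 libraries were the lowest pair by a small margin.

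**Figure D2:**
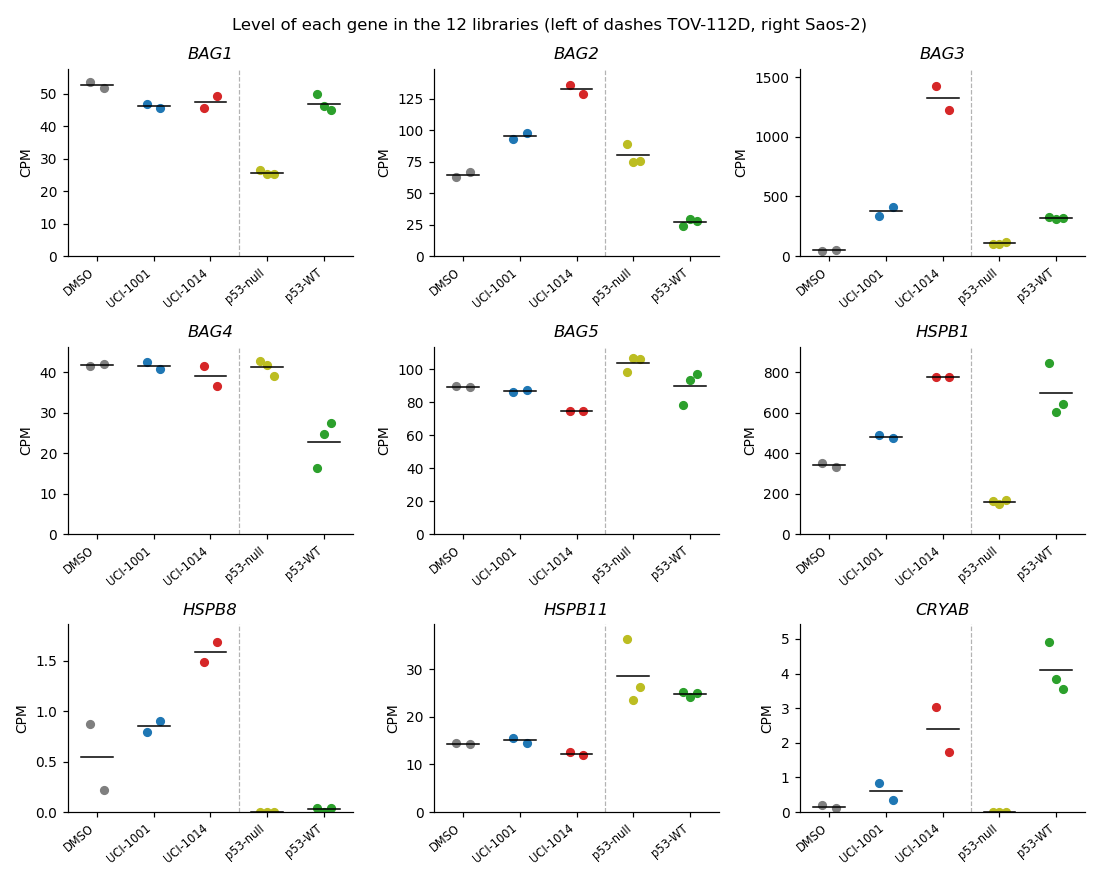
Level of each member (CPM, y axes starting at 0 and differing between panels) in each of the 12 libraries, with 1 point per library and a bar at the group mean. BAG3, BAG2 and HSPB1 stand in the order DMSO, UCI-1001, UCI-1014 without overlap, and in Saos-2 BAG3 and HSPB1 are higher and BAG2 and BAG4 lower in p53-WT than in p53-null libraries.

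The analogs were then set against each other directly, as 1 pair of compounds at the same time of 3 h. BAG3 was 3.53-fold higher with UCI-1014 than with UCI-1001 (95% interval 3.15 to 3.96, log2 fold change 1.82, SE 0.08, adjusted p = 6.3e-10). HSPB1 was 1.61-fold higher (1.52 to 1.70, adjusted p = 6.5e-09) and BAG2 1.39-fold higher (1.29 to 1.495, adjusted p = 6.2e-06). The summed CRYAB counts, scaled by depth, were 3.61-fold higher (2.27 to 5.94, counting error only). Of the 8 members without CRYAB, 3 were higher and 2 lower, beside 17.1% and 13.9% of all features (31.1% in either direction), with a median of 0.26 against -0.01.

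The members lower with UCI-1014 than with UCI-1001 were BAG5 (-0.22, SE 0.05, adjusted p = 0.00301) and HSPB11 (-0.29, SE 0.10, adjusted p = 0.0325). With all 12 libraries in one fit, the adjusted p of BAG5 was 0.212. The HSPB11 call ended in 8 alternatives, 5 of them with 1 library left out: without UCI-1001 replicate 1 or UCI-1014 replicate 2 the adjusted p was 0.211 and 0.165, and it was 0.0571, 0.054 and 0.0592 without DMSO replicate 1, UCI-1001 replicate 2 and UCI-1014 replicate 1. BAG1 (0.04, 95% interval -0.09 to 0.18), BAG4 (-0.10, -0.25 to 0.06) and HSPB8 (0.90, -0.05 to 1.86) did not pass the test, and the interval of HSPB8 reaches up to a 3.62-fold difference.

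p53-WT was compared with p53-null to see which members differed between these groups. In the paper the p53-WT line was engineered and the p53-null cells are its parental line. Effects of p53 and of making the line therefore cannot be told apart. HSPB1, BAG3 and BAG1 were higher and BAG2 and BAG4 were lower in p53-WT libraries. That is 3 higher and 2 lower of 7 members, beside 33.5% and 33.0% of 14275 features. The 5 members called stand beside a background of 66.5% called in either direction. The median was -0.21 over the 7 members and -0.01 over all features. CRYAB passed the filter only through the p53-WT group and is not counted, and HSPB8 did not pass it, with 0 counts in each p53-null library and 1, 0 and 1 in p53-WT. With replicates 2 and 3 only of both groups, BAG5 was called too (-0.16, adjusted p = 0.0251).

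HSPB1 measured 161, 148 and 168 CPM in p53-null and 847, 602 and 644 CPM in p53-WT libraries. Every p53-WT library lay above every p53-null library, with replicate 1 the highest. On the log2 scale the difference was 2.13 (SE 0.14, adjusted p = 1.9e-07). The retained-intron transcript HSPB1-203 was at 30.9 ± 2.13 TPM in p53-null and 30.3 ± 4.25 TPM in p53-WT cells, and its share of the HSPB1 TPM was 10.7% and 2.72%.

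BAG3 measured 99.3, 104 and 116 CPM in p53-null and 327, 312 and 320 CPM in p53-WT libraries. The groups did not overlap and differed by 1.59 on the log2 scale (SE 0.10, adjusted p = 1.6e-07). CRYAB had 0 counts in each p53-null library and 111, 77 and 81 in p53-WT, which was at least 29.9-fold higher than a floor of 3 counts per library. BAG1 measured 26.4, 25.4 and 25.4 CPM in p53-null and 49.9, 46.2 and 44.9 CPM in p53-WT libraries (0.87, SE 0.10, adjusted p = 1.9e-05). BAG1 was thus higher in p53-WT cells, while its log2 fold changes with the compounds were -0.19 and -0.15.

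BAG2 measured 88.9, 75.1 and 75.6 CPM in p53-null and 23.8, 29.1 and 27.6 CPM in p53-WT libraries. All p53-WT libraries were below all p53-null libraries (log2 fold change -1.57, SE 0.12, adjusted p = 6.7e-07). This direction was opposite to that with UCI-1001 and UCI-1014 in TOV-112D. The cell lines, times and treatments all differ between those comparisons, and the difference between them was not tested. BAG4 measured 42.9, 41.7 and 39.1 CPM in p53-null and 16.3, 24.6 and 27.4 CPM in p53-WT libraries (-0.86, SE 0.17, adjusted p = 8.8e-04). BAG5 (-0.21, 95% interval -0.46 to 0.03, adjusted p = 0.116) and HSPB11 (-0.21, -0.54 to 0.13, adjusted p = 0.256) did not pass the test.

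**Figure D3:**
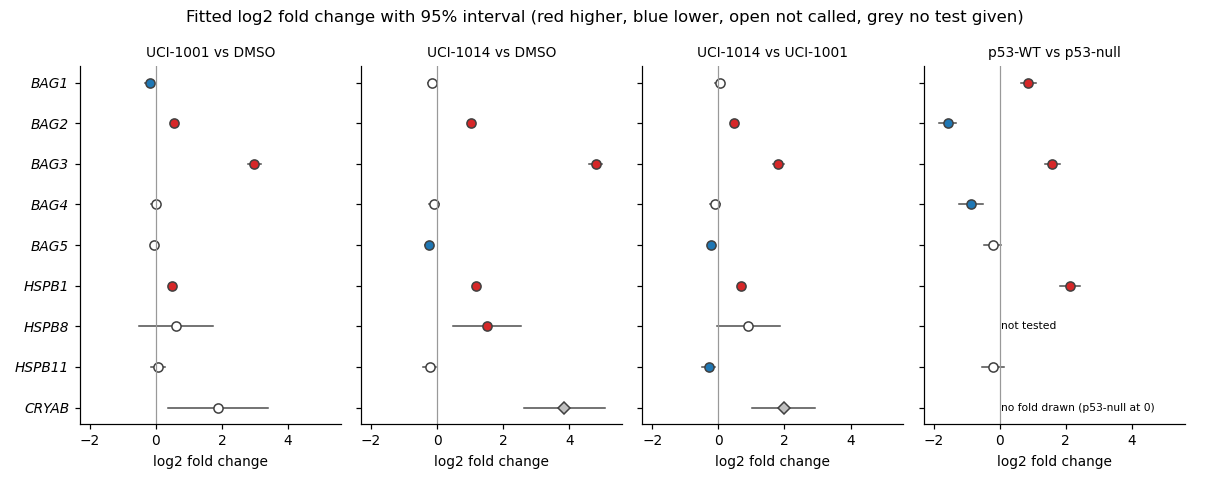
Fitted log2 fold change of each member (x axis) with its 95% interval in 4 comparisons, red where called higher, blue where called lower and open where not called at an adjusted p under 0.05, and grey diamonds for CRYAB with UCI-1014, for which no test is given. BAG3 lies at 2.98, 4.80, 1.82 and 1.59 from left to right, and BAG2 at 0.56, 1.03, 0.47 and -1.57. HSPB8 was not tested in Saos-2, and no fold is drawn for CRYAB there because p53-null libraries were at 0.

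CRYAB reads were assigned to different transcripts in different groups. CRYAB-207, whose annotated start lies upstream of that of CRYAB-205, held 62.7% and 86.1% of the CRYAB TPM with UCI-1014 and 62.2% to 80.0% in p53-WT cells. It was listed at 0 in the DMSO and UCI-1001 libraries, where only 2 to 17 CRYAB counts per library were available.

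Genes that work with these cochaperones were described by lists, and list members given without values were named after their values were seen. The heat shock response targets were DNAJB1, the HSP40 that feeds clients to HSP70, and 14 others, and all 15 were higher with UCI-1001 (median 0.82), with UCI-1014 (1.78) and with UCI-1014 against UCI-1001 (1.11). Of all features, 9.39%, 23.7% and 17.1% were higher in these comparisons. DNAJB1 had the largest difference, from 119 CPM with DMSO to 1662 CPM with UCI-1001 (3.81, SE 0.10, adjusted p = 2.6e-12) and 5073 CPM with UCI-1014 (5.42, SE 0.10, adjusted p = 3.5e-14). HSP90AB1, the constitutive HSP90, had the smallest, 0.40 and 1.12. In p53-WT cells none of the 15 was higher and 12 were lower (median -0.58) beside 33.5% higher and 33.0% lower of all features, with DNAJB1 at -0.47 (SE 0.10, adjusted p = 0.00167) and HSP90AB1 at -0.48. BAG3 and HSPB1, which are known targets of the same factor, were higher there. The list holds no HSP70 family gene. Of the 13 HSP70 family members and cofactors described next, 6 were higher and 5 lower in p53-WT cells.

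Of 13 HSP70 family members and their cofactors, 10 were higher and 0 lower with UCI-1001, and 10 were higher and 1 lower with UCI-1014, beside 15.7% and 47.1% of all features called in either direction. HSPA6, the strictly inducible HSP70, went from 0.526 CPM with DMSO to 555 ± 127 CPM with UCI-1001 and 1460 ± 404 CPM with UCI-1014. STUB1, which encodes CHIP, was the member that fell with UCI-1014 (-0.39, SE 0.06, adjusted p = 6.7e-05), and with UCI-1001 it stood at -0.08. In p53-WT cells 6 (HSPA1A, HSPA1B, HSPA4L, HSPA6, ST13 and STUB1) were higher and 5 (HSPA1L, HSPA2, HSPA8, HSPA14 and HSPH1) lower. HSPA6 was at 15.8 ± 1.80 CPM there against 0.501 CPM in p53-null. The 11 called of 13 stand beside 66.5% of all features. HSPA1A and HSPA1B, near-identical copies whose reads may be split between them, are both in this list.

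Of the 11 partners of BAG3 in selective autophagy that were tested, 4 (SQSTM1, MAP1LC3B, DNAJB6 and DNAJB2) were higher and 0 lower with UCI-1001, the same 4 were higher and 2 (STUB1 and FLNA) lower with UCI-1014, and 8 were higher and 0 lower in p53-WT cells. The shares of all features called in either direction were 15.7%, 47.1% and 66.5%. With both directions pooled, the counts with UCI-1014 and in p53-WT cells were near the background. By direction, 23.7% of all features were higher and 23.4% lower with UCI-1014. In p53-WT cells 33.5% were higher and 33.0% lower, beside 8 and 0 of the 11 partners. SQSTM1, the autophagy receptor p62, was at 0.63 (SE 0.05) with UCI-1001, 1.67 (SE 0.05) with UCI-1014 and 1.17 (SE 0.11) in p53-WT cells, and passed the test in all 3. DNAJB6, an HSP40 that suppresses aggregation, was at 0.68, 1.61 and 0.03, and did not pass in p53-WT cells. FLNA, an actin crosslinker of the filamin family, which holds BAG3 clients, was at -0.11, -0.36 and 1.01, lower with UCI-1014 and higher in p53-WT cells.

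Among 6 heat shock factors and regulators, 0 were higher and 1 (DAXX) lower with UCI-1001. With UCI-1014, VCP was higher and 4 (HSF2, HSF4, HSBP1 and DAXX) lower, and in p53-WT cells HSF1 was higher and 2 (HSF2 and DAXX) lower. Beside these stand 15.7%, 47.1% and 66.5% of all features called. VCP, the unfoldase p97, rose by 0.22 (SE 0.03) with UCI-1014, and HSF4 was at 1.77 CPM with DMSO and 0.947 CPM with UCI-1014 (-0.91, SE 0.35, adjusted p = 0.0435). Of 10 partners in survival and signalling, 3 (MCL1, TNFRSF1A and LATS2) were higher and 0 lower with UCI-1001, beside 9.39% and 6.36% of all features. These and LATS1 were higher and BCL2L1 was lower with UCI-1014, and in p53-WT cells BCL2L1, TNFRSF1A, PINK1 and LATS2 were higher and BCL2 and LATS1 lower. LATS2, a Hippo pathway kinase, was at 0.71, 1.79 and 1.20 and passed in all 3. BCL2L1, which encodes BCL-XL, was at -0.32 (SE 0.07) with UCI-1014 and 0.80 (SE 0.10) in p53-WT cells, and BCL2, which BAG1 was first found to bind, was at -0.25 with UCI-1001 without passing and at -1.57 in p53-WT cells.

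The other family members were mostly silent. Of 8, only BAG6 was tested in TOV-112D, at 464 CPM with DMSO and log2 fold changes of 0.00 and 0.05 that did not pass the test. In Saos-2, BAG6 (-0.09, SE 0.10) did not pass, and HSPB7, named after its values were seen, was at 0.772 ± 0.200 CPM in p53-WT and at 0 in p53-null libraries.

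**Figure D4:**
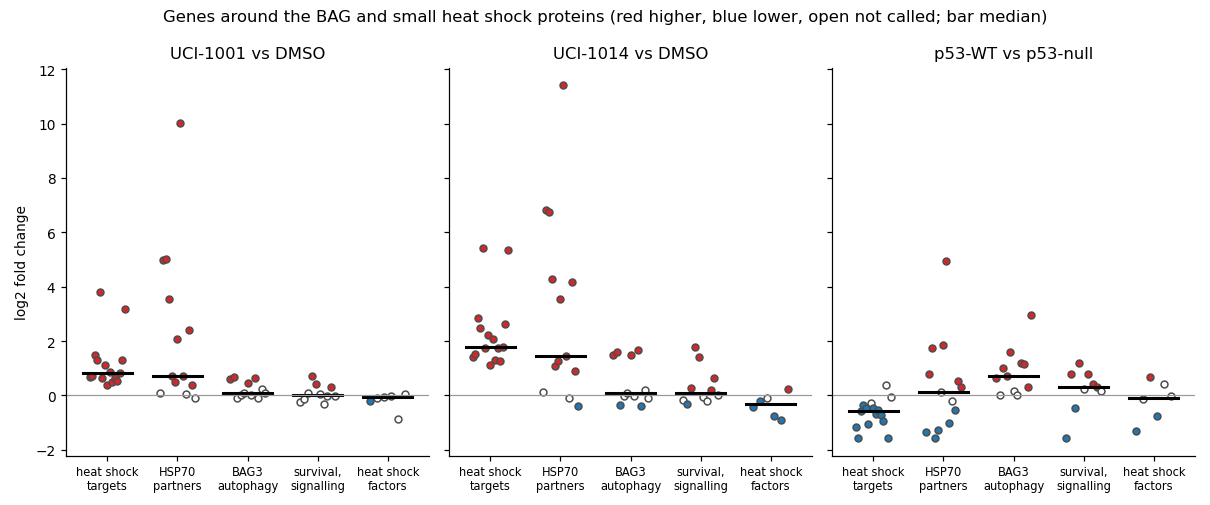
Log2 fold change (y axis) of the tested genes of 5 lists in 3 comparisons, with 1 point per gene, red where called higher, blue where called lower and open where not called, and a bar at the median. All 15 heat shock response targets lie above 0 with both compounds, and 12 of them are called lower in p53-WT cells.

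The genes with the most similar course over the 12 libraries were sought for the 3 members with the widest range in TOV-112D, by Euclidean distance of log2 CPM centred within each cell line among 12593 genes. For BAG3 they were HMOX1 (haem oxygenase, distance 0.61), PTGS2 (cyclooxygenase-2, 0.74) and ATF3 (a stress-induced transcription factor, 0.88). HMOX1 had log2 fold changes of 3.24 with UCI-1001, 5.14 with UCI-1014 and 1.98 in p53-WT cells. For CRYAB they were NR4A1 (0.93), LBH (1.03) and ADM2 (1.19), and for HSPB8 TMEM179 (0.49), NUTM2B (0.54) and SERPINB8 (0.59), at levels near the limit of counting for both members. These distances are descriptions, and the libraries of a cell line share their groups.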

How the data were processed

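The authors quantified reads against GRCh38 with kallisto 0.48.0 and deposited, for each Ensembl gene, whole-number counts made from its transcripts' estimated counts, without normalization. Files of the single libraries, deposited by the authors too, give estimated counts, effective length and TPM for 187626 transcripts. The annotation release and the strandedness are not given in the sources used here. No column of the authors' own comparisons was used.

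Counts were summed by symbol. Each cell line was fitted apart with edgeR 4.0.16 in R 4.3.3 (TMM, filterByExpr, glmQLFit, glmQLFTest, two-sided), Benjamini-Hochberg adjusted over all features, and called at an adjusted p under 0.05. SE is the log2 fold change divided by the root of F. Scripts were tested on simulated data. Alternatives used DESeq2 1.42.0, other scaling, filters, designs and left-out libraries. TPM from the deposited files were summed over GENCODE 44 transcripts and entered no test. Depth limits HSPB8 and CRYAB, and 3 counts in a library equalled 0.122 to 0.169 CPM. Exact intervals cover counting error only.

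The members, the lists and the tests were chosen with earlier results of these data known. The genes named from each list were those with the largest and smallest log2 fold change with either compound at a mean of at least 1 CPM, unless stated. Some values of the lists are not reported here. Replicate numbers were not taken to pair libraries, because same-numbered libraries did not deviate together in every pair (correlations -0.125 to 0.217).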

Additional observations from a re-analysis of the deposited data

How the results depend on the processing

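Of 460 recomputed log2 fold changes of members, 423 kept their direction and their side of the threshold, 27 lost the call, 4 gained one and 6 changed sign, all 6 in values that were never called. The counts of members called given here include CRYAB. Its calls with UCI-1014 and in p53-WT cells add no support, because it passed the filter only through those groups. Without CRYAB, the main fits called 4 members with UCI-1001, 5 with UCI-1014, 5 between the compounds and 5 for p53-WT. BAG3 kept its call in every comparison and alternative. Of 4 members called with UCI-1001, 2 remained called with all 12 libraries in one fit and 1 (BAG3) at a log2 fold change over 1. Of the 6 called between the compounds, 2 (BAG3 and CRYAB) passed a log2 fold change over 1. With an offset for transcript length 3 were called there, and BAG1 and BAG5 were not tested. Leaving out 1 library gave 3 to 4 members with UCI-1001, 5 to 6 with UCI-1014, 4 to 6 between the compounds and 6 of 6 fits with 6 members for p53-WT. The length offset turned BAG4 to 0.049 with UCI-1001 and 0.048 with UCI-1014. Over left-out libraries, BAG4 ranged from -0.039 to 0.018 with UCI-1001 and from -0.17 to 0.0094 between the compounds, BAG1 from -0.0067 to 0.11 between the compounds, and HSPB8 from -0.046 to 1.935 with UCI-1001. The cause of these changes was not tested. CRYAB passed with UCI-1001 when low counts were not filtered (adjusted p = 0.0218). DESeq2 gave no adjusted p for CRYAB with UCI-1001 or between the compounds.

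The count of features called with UCI-1001 was 2232, against 1149 with DESeq2, 665 with the length offset and 308 with all 12 libraries. With UCI-1014 it was 6677, against 3960 and 3421 with the offset and all 12 libraries. Between the compounds it was 4406, against 2636, 1954 and 937. With the replicate block, 3, 6, 6 and 6 members were called with UCI-1001, with UCI-1014, between the compounds and for p53-WT. BAG1 with UCI-1001 was the call lost (adjusted p = 0.0888). Same-numbered UCI-1001 and UCI-1014 libraries correlated at -0.125, and the crossed replicate block called 6 members and 4979 features, against 3882 uncrossed. Counting protein-coding transcripts only moved 9 of 45 group levels in TPM by more than 1 SD.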
